A study of Homo sapiens with 9 samples.

Results

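The 38 genes described here make cholesterol and fatty acids, sense the sterol content of the cell, or move sterols between membranes and out of the cell. They were found by symbol, and all 38 were present among the 59648 gene rows of each of 9 RNA sequencing libraries from Kasumi-1, a human acute myeloid leukaemia line whose t(8;21) translocation produces the fusion transcription factor AML1-ETO (AE). By role, 18 of the genes act in sterol synthesis, 5 in the regulation of the SREBP factors, 4 in the handling of sterols inside the cell, 3 in sterol export and its control by the LXR receptors, and 8 in fatty acid synthesis. All libraries, controls included, came from cells that received an shRNA lentivirus, were given 1 µg/mL puromycin 48 h later for a further 48 h, and were harvested on day 4. The 3 groups of 3 libraries carried a control shRNA, AE shRNAs labelled 1 to 3, or shRNAs 538, 540 and 542 against LYL1, a basic helix-loop-helix factor of blood progenitors. The labels do not state whether AE 1 to 3 are different shRNAs or repeats of 1 of them, nor whether libraries of a group came from separate cultures, so the p-values reflect the spread among these libraries, which may be technical.

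Cholesterol is built from acetyl-CoA through mevalonate, farnesyl diphosphate and squalene, and fatty acids are built from the same acetyl-CoA once it has been carboxylated to malonyl-CoA. When sterols run low, SCAP escorts the SREBP factors from the endoplasmic reticulum to the Golgi, where they are cleaved and released to switch on both pathways, whereas INSIG proteins hold them back when sterols are plentiful. Oxysterols activate the LXR receptors, which raise sterol export through ABCA1 and ABCG1 and the degradation of lipoprotein receptors through MYLIP.

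SREBP factors act at promoters together with NF-Y, which binds the CCAAT box, and SP1, which binds GC boxes. Promoter windows of RefSeq (GRCh38.p14), which run from 250 bases before to 50 bases after a start site, were at hand for 33 of the 38 genes. The letters CCAAT, searched on both strands, were found in 23 of the 33 genes (69.7%), against 42.8% of the 9830 tested genes with a window and 39.7% of all 27305 genes with one. They were found in 13 of 15 sterol synthesis genes (86.7%) and 4 of 7 fatty acid genes (57.1%). The 4 stretches below stand before the start sites of 2 genes that fell with AE knockdown (ACLY, SCD) and 2 that rose (HSD17B7, MYLIP). They were chosen after the values were seen, and only genes with a CCAAT match could be chosen. They were read 5′ to 3′ along the strand of the gene, with capitals on each CCAAT or its reverse complement ATTGG. ACLY lies at chr17:41919023-41919272 on the minus strand, SCD at chr10:100346983-100347123, HSD17B7 at chr1:162790452-162790701 and MYLIP at chr6:16128836-16129085, all 3 on the plus strand. The SCD stretch ends where a GENCODE exon of the gene begins.
ACLY: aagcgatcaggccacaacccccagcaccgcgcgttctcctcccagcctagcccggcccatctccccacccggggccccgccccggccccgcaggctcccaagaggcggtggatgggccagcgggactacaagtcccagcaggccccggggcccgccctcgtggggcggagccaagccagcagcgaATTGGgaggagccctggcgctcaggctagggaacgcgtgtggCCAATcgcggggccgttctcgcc
SCD: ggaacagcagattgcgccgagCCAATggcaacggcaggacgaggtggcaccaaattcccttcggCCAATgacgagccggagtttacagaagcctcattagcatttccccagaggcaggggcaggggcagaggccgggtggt
HSD17B7: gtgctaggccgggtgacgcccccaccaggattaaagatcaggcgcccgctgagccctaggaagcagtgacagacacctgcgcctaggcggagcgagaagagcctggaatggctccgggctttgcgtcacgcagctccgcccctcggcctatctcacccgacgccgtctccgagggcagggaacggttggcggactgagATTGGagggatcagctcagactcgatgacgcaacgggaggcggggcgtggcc
MYLIP: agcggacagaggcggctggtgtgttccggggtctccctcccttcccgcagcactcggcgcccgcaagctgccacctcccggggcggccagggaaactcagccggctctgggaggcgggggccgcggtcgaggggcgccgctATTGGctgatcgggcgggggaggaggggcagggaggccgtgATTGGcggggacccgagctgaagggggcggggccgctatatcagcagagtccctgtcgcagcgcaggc

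The letters lie at -65 and -23 from the start site in ACLY, -229 and -186 in SCD, -52 in HSD17B7, and -109 and -68 in MYLIP. From the other start site of ACLY the same matches lie at -136 and -94. EBP, ACACA, NPC2 and SOAT1, which also differed with AE knockdown in a comparison below, hold matches too. FADS2, which fell, holds a match only at 6, past a start site. SREBF1, which was lower with AE knockdown than with LYL1 knockdown, holds none. HSD17B7 has a further match at 9, past its start site and outside the printed stretch. The sterol regulatory element, searched as TCACNCCAC, was found in 1 of the 33 genes, SREBF2 (at -133), against 1.39% of all genes with a window. Elements with other letters, or outside the windows, are missed by this search. GC boxes (GGGCGG) were found in 97.0% of the 33 genes and in 76.6% of tested genes, E-boxes (CACGTG) in 15.2% and 12.8%, and the RUNX letters TGTGGT in 18.2% and 13.3%. None of these motifs contains another. A match is a run of letters and not a measured binding site, and no binding was measured in these libraries.

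**Figure D1:**
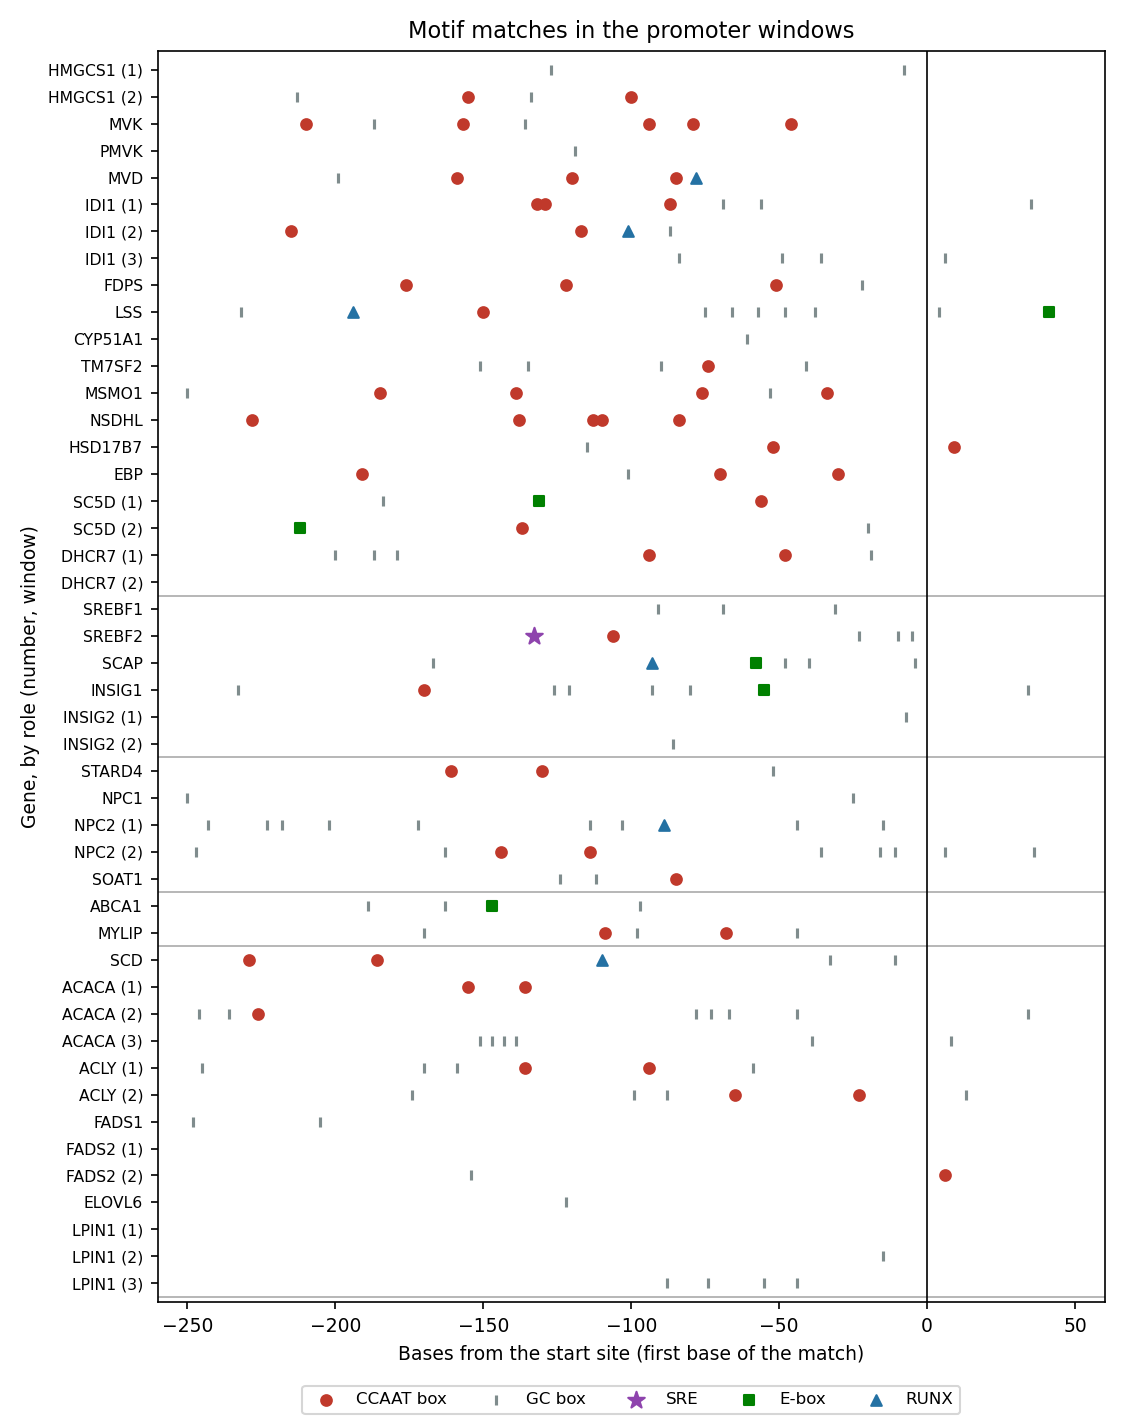
Positions of motif matches in the 46 promoter windows of 33 genes, in bases from the start site (x axis, 0 at the start), with 1 row per window and genes grouped by role. CCAAT boxes (red circles) lie mostly upstream of the start site and are frequent in the sterol synthesis genes at the top. A single match to the letters searched for the sterol regulatory element (star) appears, in SREBF2.

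Library totals ranged from 20103275 to 28039518 counts, and levels are given as CPM, counts scaled to the library total after TMM scaling. Of the 38 genes, 37 passed the filter on low counts and were tested with edgeR among 14741 genes, a gene being called at an adjusted p below 0.05. RUNX1T1, the ETO part of the fusion transcript, lay at 114, 137 and 87.7 CPM in AE knockdown 1, 2 and 3, or 52.6%, 63.0% and 40.5% of its mean in the controls. LYL1 lay at 49.5%, 60.5% and 27.0% of its control mean with shRNAs 538, 540 and 542, although that difference was not called. The spread between libraries, as the biological coefficient of variation, was 7.55% in the controls, 31.4% with AE knockdown and 20.9% with LYL1 knockdown. All 7 markers of myeloid blasts were detected in every library. Summed markers of granulocytes lay between 652 and 712 CPM in the controls, against 1274, 818 and 4856 CPM in AE knockdown 1, 2 and 3, and those of monocytes and macrophages between 17.3 and 18.6 CPM and at 58.7, 32.5 and 273 CPM. With LYL1 shRNAs 538, 540 and 542 the granulocyte sums were 341, 646 and 1473 CPM. The monocyte and macrophage sums were 27.6, 32.2 and 28.7 CPM there, also above all controls. With AE knockdown against control, 4 of 5 tested granulocyte markers and 4 of 6 tested monocyte markers were called higher, against 11.4% of all genes tested. The lists hold 10 and 12 markers, and the others were too low to test. LTF, LCN2, MMP8, FCGR3B, CD68 and CD163 were at 0 in the AE knockdown libraries, and MARCO, MRC1 and CD36 in every library. ELANE was not called, with means of 597 CPM in the controls and 470 CPM with AE knockdown. BPI alone made 3645 CPM of the granulocyte sum in AE knockdown 3. In bulk RNA a change in the share of such cells and a change in RNA per cell cannot be told apart.

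AE knockdown against control asks which of these genes follow the fusion. The fatty acid genes held most of the falls: 4 of 8 fell (ACLY, SCD, ACACA and FADS2), 0 rose, and the median log2 fold change was -0.56. The 18 sterol synthesis genes had 1 call in each direction and a median of -0.07, and the export and handling genes held the largest rise, NPC2 at 3.30-fold. In all, 5 of 37 genes fell, against 10.4% of all genes tested, and 3 rose, against 11.4%. The median of the 37 was -0.36 and that of all genes tested 0.05. Libraries of the 2 groups did not overlap for 14 of the 37 in the lower direction, against 22.2% of all genes, and for 4 in the higher direction, against 23.1%.

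**Figure D2:**
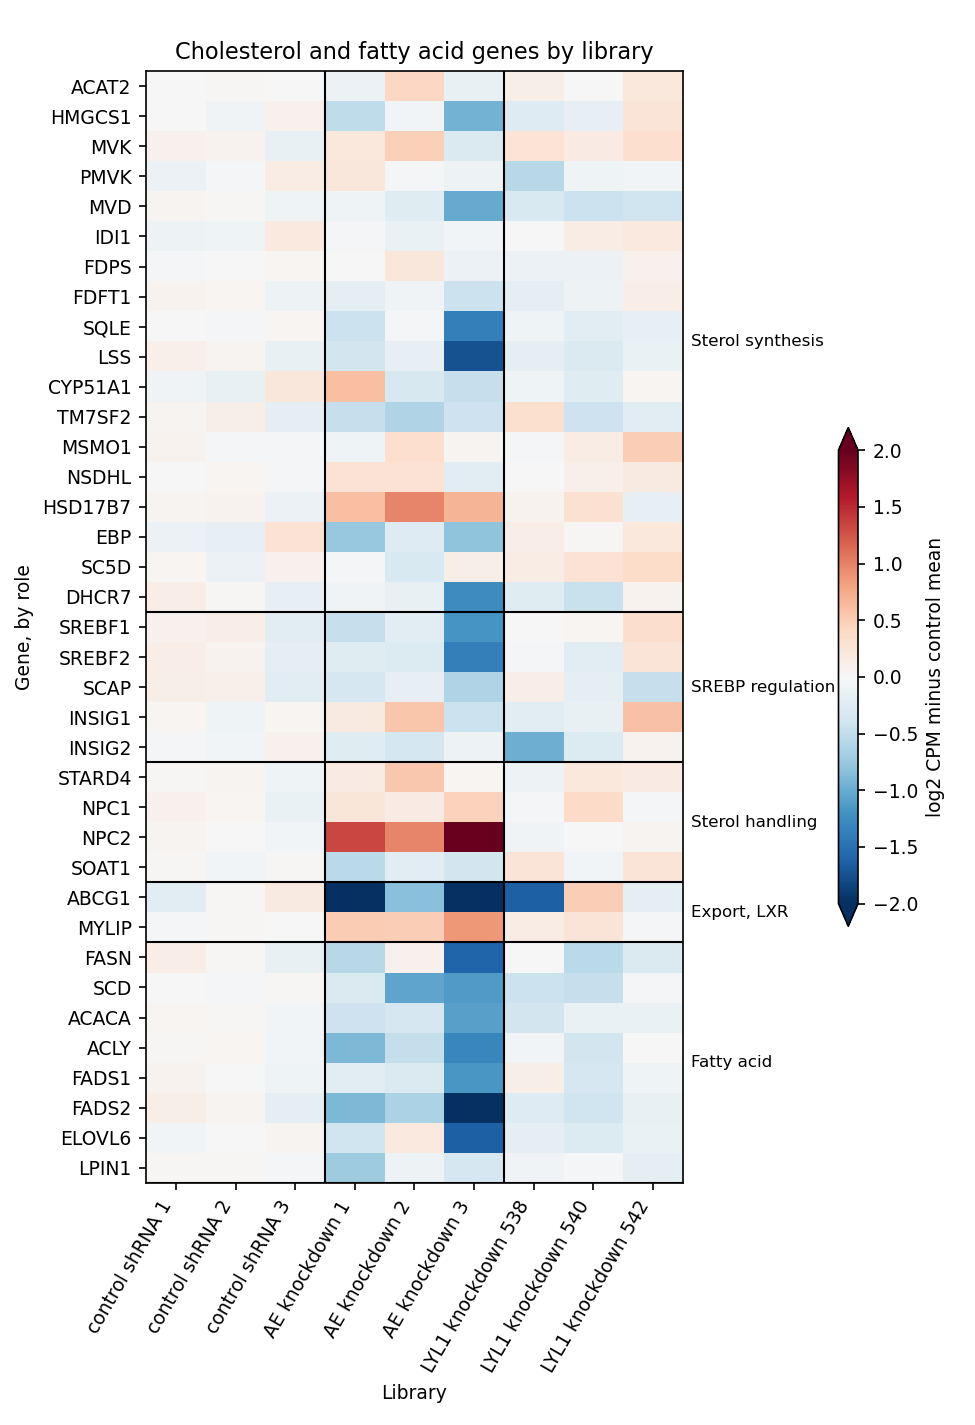
Colour shows log2 CPM minus the mean of the 3 controls for 37 genes (rows, by role) in 9 libraries (columns), computed with 0.5 added to each count, and colours end at 2 in each direction. The fatty acid block at the bottom is blue throughout in AE knockdown 1 and 3 and deepest in AE knockdown 3, with FASN (0.08) and ELOVL6 (0.20) slightly above 0 in AE knockdown 2, while NPC2, MYLIP and HSD17B7 are red in all 3.

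ACLY and ACACA, which act in the first steps from citrate to fatty acids, were called lower. ACLY, which splits citrate into the cytosolic acetyl-CoA that feeds both pathways, lay at 432, 440 and 410 CPM in the controls, against 229, 307 and 173 CPM with AE knockdown. Every AE knockdown library was thus below every control. ACLY fell 1.81-fold (log2 fold change -0.85, SE 0.20, edgeR adjusted p = 0.0143). ACACA, the acetyl-CoA carboxylase that makes malonyl-CoA, lay at 166, 164 and 155 CPM in the controls, against 121, 128 and 75.8 CPM with AE knockdown, again without overlap. It fell 1.49-fold (-0.58, SE 0.18, edgeR adjusted p = 0.0455), the weakest of the 8 calls by p. FASN, the synthase that uses malonyl-CoA to build palmitate, lay at 552, 511 and 452 CPM against 342, 534 and 167 CPM. AE knockdown 2 sat within the control range, and FASN was not called (-0.54, SE 0.33, edgeR adjusted p = 0.26).

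The desaturases, which put double bonds into fatty acids, were the next group. SCD, which turns stearate into oleate, lay at 538, 526 and 545 CPM in the controls, against 437, 257 and 245 CPM with AE knockdown. The 3 controls were close together and all AE knockdown libraries lower, with AE knockdown 1 nearest. SCD fell 1.71-fold (-0.78, SE 0.22, edgeR adjusted p = 0.0292). FADS2, which starts the conversion of linoleic acid to longer polyunsaturated fatty acids, lay at 510, 491 and 415 CPM against 252, 304 and 107 CPM and fell 2.13-fold (-1.09, SE 0.30, edgeR adjusted p = 0.0265). That was the largest fall among the called genes. FADS1, which acts after FADS2 on the same pathway, lay at 202, 195 and 182 CPM against 165, 157 and 85.8 CPM, without overlap but also without a call (-0.50, SE 0.22, edgeR adjusted p = 0.123).

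ELOVL6 and LPIN1 complete the list. ELOVL6, which lengthens palmitate to stearate, lay at 94.2, 97.8 and 102 CPM in the controls, against 74.3, 112 and 31.6 CPM with AE knockdown (-0.43, SE 0.33, edgeR adjusted p = 0.373). LPIN1, a phosphatidate phosphatase of triglyceride synthesis, lay between 39.5 and 41.1 CPM against 24.7 to 37.9 CPM (-0.36, SE 0.16, edgeR adjusted p = 0.127). All 8 fold changes were thus below 0, as were those of 6883 of the 14741 genes tested. The groups did not overlap for 6 of the 8 genes, all lower, against 22.2% of all genes in that direction. The depth of the difference varied by library, with list medians against the control mean of -0.49, -0.32 and -1.24 in AE knockdown 1, 2 and 3. AE knockdown 3, with the lowest RUNX1T1 and the highest granulocyte and monocyte marker sums, was the lowest of the 3, and the part of these markers in the result was not tested. Without it the list median was -0.39.

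**Figure D3:**
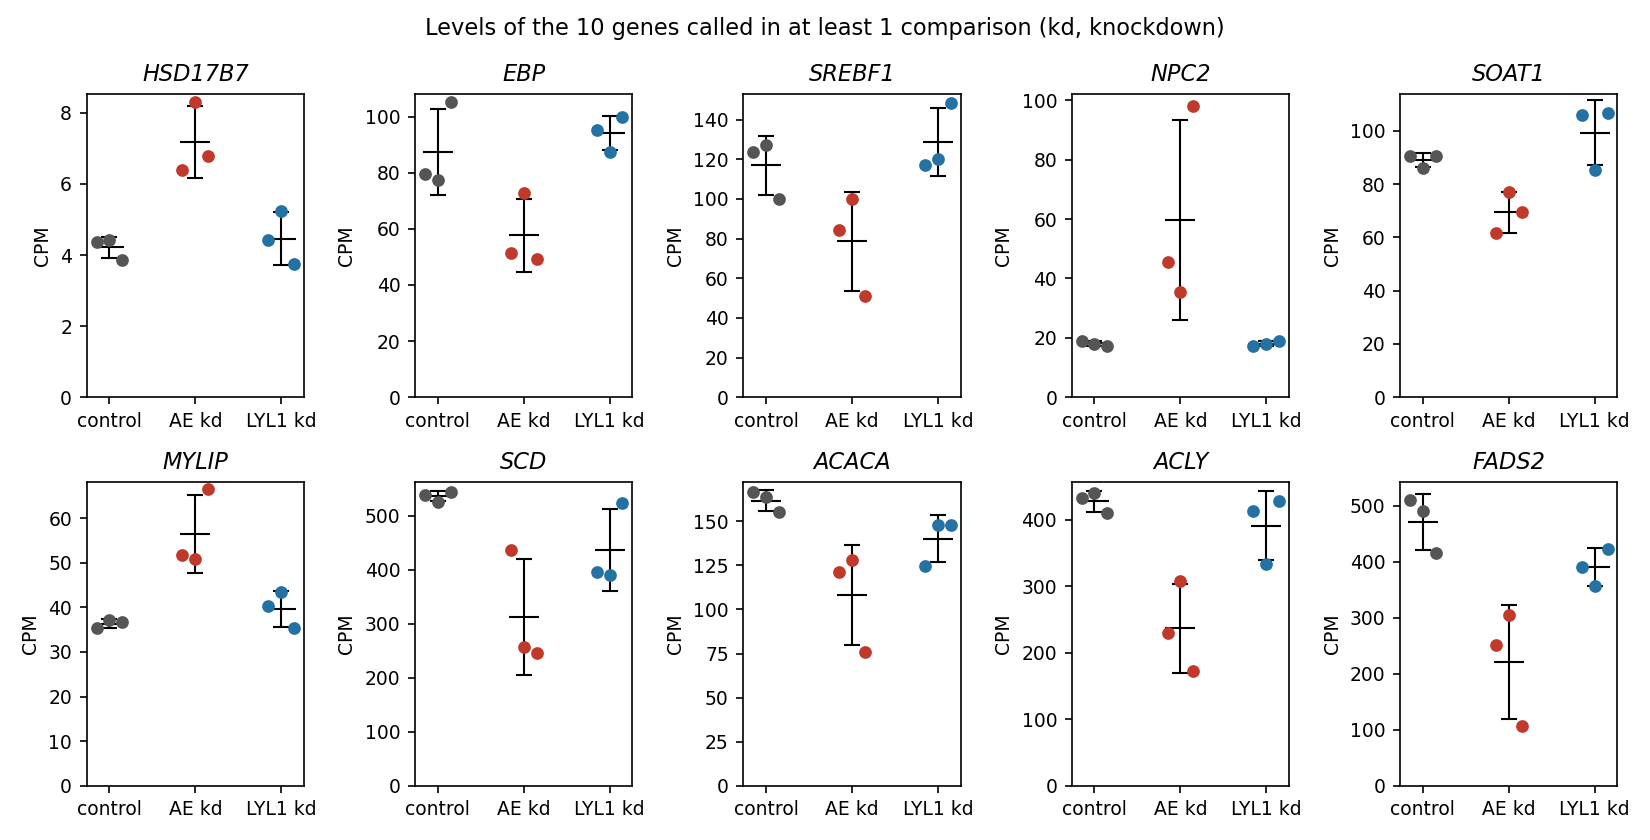
CPM in each of the 9 libraries (points, coloured by group, with a line at the group mean and bars of 1 SD) for the 10 genes called in at least 1 comparison, 1 panel per gene, each with its own y axis. ACLY, FADS2, SCD and ACACA have all 3 AE knockdown points below the controls, and NPC2 has them between 35.5 and 98.2 CPM against 17.4 to 18.9 CPM.

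Sterol synthesis did not move as a block. From acetyl-CoA to farnesyl diphosphate, none of ACAT2, HMGCS1, MVK, PMVK, MVD, IDI1 and FDPS was called. HMGCS1, the HMG-CoA synthase, lay at 91.5, 87.7 and 98.3 CPM in the controls, against 64.7, 89.2 and 47.8 CPM with AE knockdown (-0.46, SE 0.22, edgeR adjusted p = 0.144). MVD, which decarboxylates mevalonate diphosphate, lay between 23.9 and 26.2 CPM against 12.5 to 23.7 CPM, without overlap (-0.39, SE 0.21, edgeR adjusted p = 0.191). The kinases MVK and PMVK, the isomerase IDI1, the thiolase ACAT2 and the prenyl synthase FDPS had log2 fold changes from -0.08 to 0.17, all with overlap. For IDI1 and FDPS the 95% intervals were -0.36 to 0.21 and -0.24 to 0.33, so that differences beyond those bounds are outside the intervals.

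In the squalene part of the pathway, FDFT1, the squalene synthase, had a log2 fold change of -0.22 (SE 0.15, edgeR adjusted p = 0.287). SQLE, the squalene epoxidase, lay at 191, 184 and 196 CPM in the controls, against 141, 185 and 73.8 CPM with AE knockdown (-0.51, SE 0.25, edgeR adjusted p = 0.165). LSS, which closes the ring to lanosterol, lay at 95.7, 92.6 and 80.3 CPM against 69.5, 79.4 and 26.6 CPM (-0.61, SE 0.31, edgeR adjusted p = 0.174). In both genes AE knockdown 3 was far below the other 2 AE knockdown libraries.

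The calls were in the steps after lanosterol. HSD17B7, the 3-ketosteroid reductase that works with NSDHL and MSMO1 to remove the methyl groups at carbon 4, lay at 4.37, 4.41 and 3.86 CPM in the controls, against 6.40, 8.32 and 6.78 CPM with AE knockdown. The groups did not overlap, and HSD17B7 rose 1.7-fold (0.77, SE 0.20, edgeR adjusted p = 0.0241). Its named copy HSD17B7P2 lay at 28.6% of its level and could share reads with it, from 1.33 CPM in the controls to 1.84 CPM with AE knockdown. EBP, the sterol isomerase that shifts a double bond in the sterol rings, lay at 79.6, 77.4 and 105 CPM against 51.2, 72.7 and 49.3 CPM. It fell 1.51-fold (-0.60, SE 0.18, edgeR adjusted p = 0.0367), with AE knockdown 2 close to the lowest control.

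The remaining enzymes of this stretch in the sterol synthesis list were not called. LBR, a sterol C14 reductase outside that list, was called lower and is described further below. TM7SF2, a sterol C14 reductase, lay at 34.1, 35.5 and 28.8 CPM in the controls, against 23.9, 21.5 and 24.5 CPM with AE knockdown, without overlap (-0.50, SE 0.19, edgeR adjusted p = 0.0845). DHCR7, which makes the last reduction to cholesterol, lay at 149, 139 and 121 CPM against 130, 123 and 57.0 CPM (-0.40, SE 0.26, edgeR adjusted p = 0.292). MSMO1, NSDHL and the desaturase SC5D had log2 fold changes of 0.11, 0.14 and -0.06. The demethylase CYP51A1 lay at 2.36 to 4.94 CPM over the 6 libraries (0.03, SE 0.29), and 83.2% of its exonic bases overlap other genes in GENCODE v29, so that its count is uncertain. Its named copies CYP51A1P1 and CYP51A1P2 lay at 66.4% and 35.2% of its level and could share reads with it. Their means were 1.59 and 1.06 CPM in the controls and 3.03 and 1.39 CPM with AE knockdown. ACAT2 shares 52.3% of its exonic bases with other genes, HMGCS1 15%, IDI1 14.8% and FDPS 18.6%.

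Among the regulators no gene was called, and 4 of 5 had fold changes below 0. SREBF1, whose SREBP-1 proteins drive fatty acid genes, lay at 124, 127 and 99.7 CPM in the controls, against 84.3, 100 and 51.1 CPM with AE knockdown. AE knockdown 2 just reached the lowest control (-0.57, SE 0.22, edgeR adjusted p = 0.0844). SREBF2, whose SREBP-2 drives sterol genes, lay at 351, 336 and 280 CPM against 271, 265 and 124 CPM, without overlap (-0.55, SE 0.26, edgeR adjusted p = 0.149). The escort SCAP had a log2 fold change of -0.36 (SE 0.18, edgeR adjusted p = 0.166). INSIG1, itself an SREBP target, lay at 146, 134 and 146 CPM against 160, 209 and 106 CPM, with AE knockdown libraries on both sides of the controls. INSIG2 lay between 11.3 and 12.4 CPM against 9.23 to 10.9 CPM (-0.23, SE 0.23, edgeR adjusted p = 0.496).

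The handling and export genes held 2 of the 3 rises. NPC2, the soluble lysosomal protein that passes cholesterol to the membrane protein NPC1, lay at 18.9, 18.1 and 17.4 CPM in the controls, against 45.6, 35.5 and 98.2 CPM with AE knockdown. All AE knockdown libraries were well above all controls, with AE knockdown 3 highest. NPC2 rose 3.30-fold (1.72, SE 0.31, edgeR adjusted p = 0.00629). Its order over the 3 libraries was that of the granulocyte and monocyte marker sums, and the part of those markers was not tested. Without AE knockdown 3 the log2 fold change was 1.15 and NPC2 was still called. NPC1 lay at 26.6, 25.7 and 22.9 CPM against 29.6, 28.2 and 34.3 CPM (0.29, SE 0.16, edgeR adjusted p = 0.205). STARD4, a carrier of sterols in the cytosol, had a log2 fold change of 0.26 (edgeR adjusted p = 0.263). SOAT1, which esterifies cholesterol for storage, lay at 90.7, 86.0 and 90.5 CPM against 61.6, 77.2 and 69.4 CPM, without overlap (-0.36, SE 0.14, edgeR adjusted p = 0.0826).

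MYLIP, the ubiquitin ligase that marks lipoprotein receptors for degradation and an LXR target, lay at 35.3, 37.1 and 36.7 CPM in the controls, against 51.8, 50.9 and 66.6 CPM with AE knockdown. It rose 1.55-fold without overlap (0.63, SE 0.15, edgeR adjusted p = 0.0142). The LXR targets that export sterols were near the limit of detection. ABCG1 lay at 0.445, 0.528 and 0.588 CPM against 0.0358, 0.282 and 0 CPM and was not called (-2.12, SE 0.79, edgeR adjusted p = 0.0748). ABCA1, the one gene that was not tested, had 0, 1 and 0 counts in the controls and 8, 4 and 6 counts with AE knockdown. The summed counts were 1 and 18, so that the 2 exporters lay in opposite directions at levels where a few counts decide the value.

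**Figure D4:**
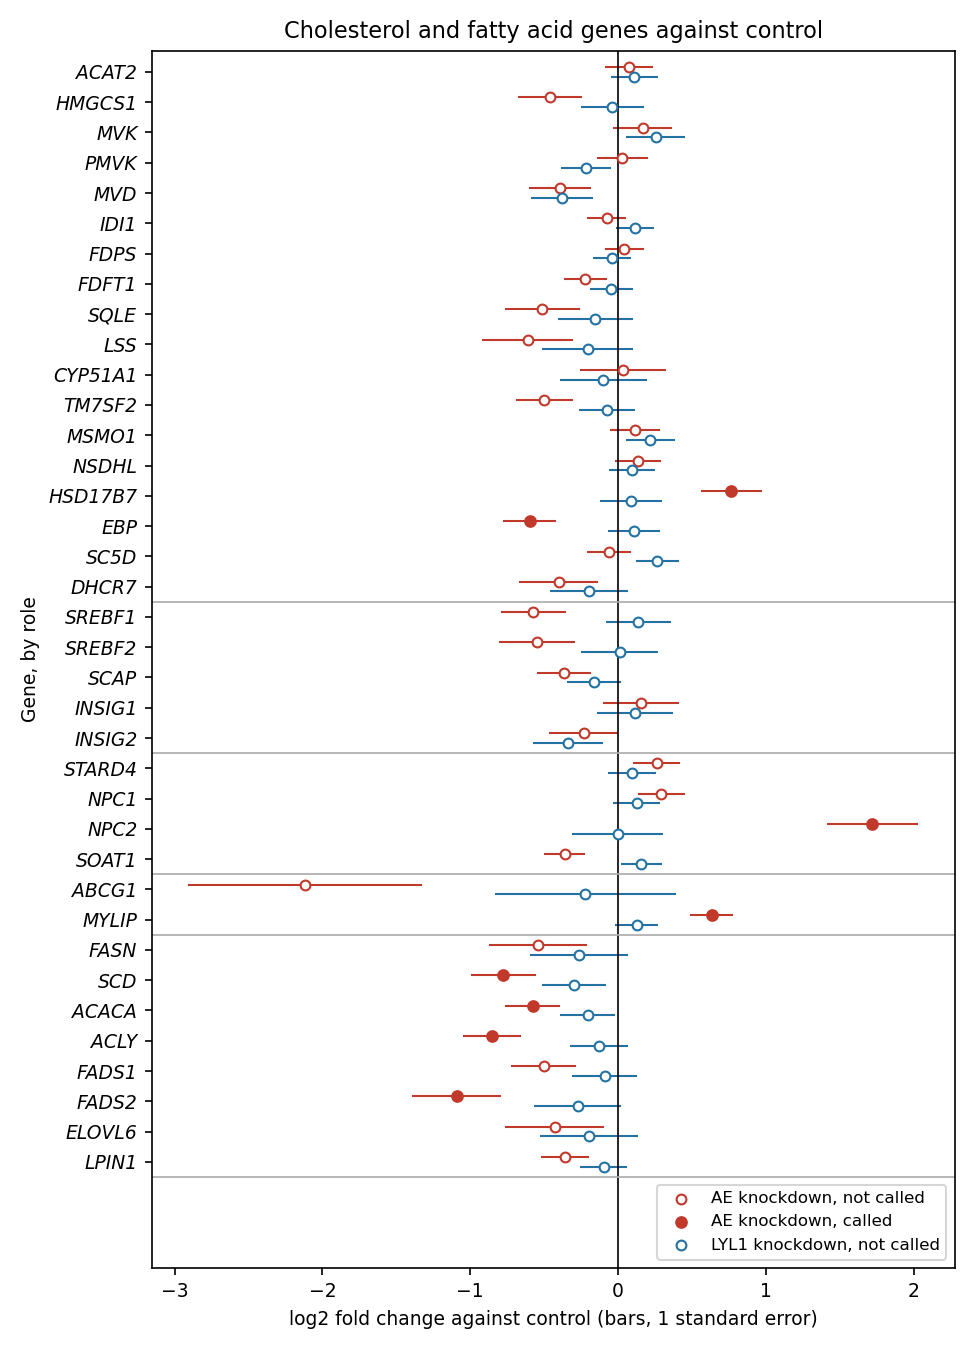
Log2 fold changes against control of the 37 tested genes (y axis, by role) with AE knockdown (red) and LYL1 knockdown (blue), where bars show 1 standard error and filled points are called at an adjusted p below 0.05. All 8 fatty acid genes lie left of 0 with AE knockdown, from -1.09 to -0.36, and no blue point is filled.

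The calls rested on small margins, and the number called over all genes changed with the same omissions. Without control replicate 1, 2 or 3 none of the 5 falls was called and NPC2 alone remained among the rises, with the same direction for all 8 genes. Over all genes, 602 of 15226, 533 of 15119 and 605 of 15229 tested were then called lower, against 1530 of 14741 with all libraries. Without AE knockdown 2, 12 genes were called lower, against 1932 of 15033 over all genes. Without AE knockdown 3 or LYL1 shRNA 540, 3 were, against 1392 of 15049 and 1387 of 15083 over all genes. EBP was also lost without AE knockdown 1 or LYL1 shRNA 538, SCD without AE knockdown 2, and ACACA without any 1 of the LYL1 knockdown libraries.

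LYL1 knockdown against control asks the same of LYL1. Of the 37 genes, 0 were called in edgeR, DESeq2 or limma-voom, and 0 had an unadjusted p below 0.05 in edgeR, while 0.00678% of all genes tested were called in each direction. The 37 log2 fold changes ran from -0.38 to 0.27 with a median of -0.05. NPC2 lay at 17.3, 18.1 and 18.9 CPM, against 17.4 to 18.9 CPM in the controls, and its log2 fold change of -0.00 had a 95% interval of -0.68 to 0.68. EBP lay at 95.2, 87.5 and 99.7 CPM, inside the control range.

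The fatty acid genes were nearest to a shared direction. All 8 had fold changes below 0, from -0.30 to -0.09, with a median of -0.20, while 7219 of the 14741 genes tested lay below 0. SCD lay at 396, 389 and 523 CPM with shRNAs 538, 540 and 542, below the controls at 526 to 545 CPM (-0.30, SE 0.22, 95% interval -0.78 to 0.18, edgeR adjusted p = 1). ACACA at 125, 148 and 148 CPM and ELOVL6 at 86.8, 81.2 and 88.9 CPM also lay below all controls. ACLY overlapped, at 413, 333 and 428 CPM. Its 95% interval of -0.56 to 0.30 overlaps that of -1.29 to -0.42 with AE knockdown, and the direct contrast below tests the difference. The list medians by library were -0.12, -0.35 and -0.13 with shRNAs 538, 540 and 542. The residual LYL1 level was lowest with 542, and a relation of the medians to it was not tested.

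Sterol synthesis genes lay on both sides of 0. MVD at 20.3, 18.8 and 19.2 CPM was below all controls (-0.38) and SQLE at 180, 163 and 170 CPM likewise (-0.15), whereas MVK at 13.5, 12.6 and 14.2 CPM (0.25) and SC5D at 32.4, 35.6 and 37.7 CPM (0.27) were above them. The list median was -0.04 and took either sign when single libraries were left out. Over all 37 genes, 5 did not overlap in the lower and 2 in the higher direction, against 8.17% and 8.41% of all genes. The regulators were not apart from the controls. SREBF1 at 117, 120 and 148 CPM overlapped the upper part of the control range, and SREBF2 at 315, 276 and 383 CPM spanned it. INSIG2 was lowest with shRNA 538, at 5.95 CPM against 9.72 and 12.3 CPM with 540 and 542, and INSIG1 highest with 542, at 213 CPM against 121 and 127 CPM. ABCA1 had 1 count in the 3 libraries together.

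**Figure D5:**
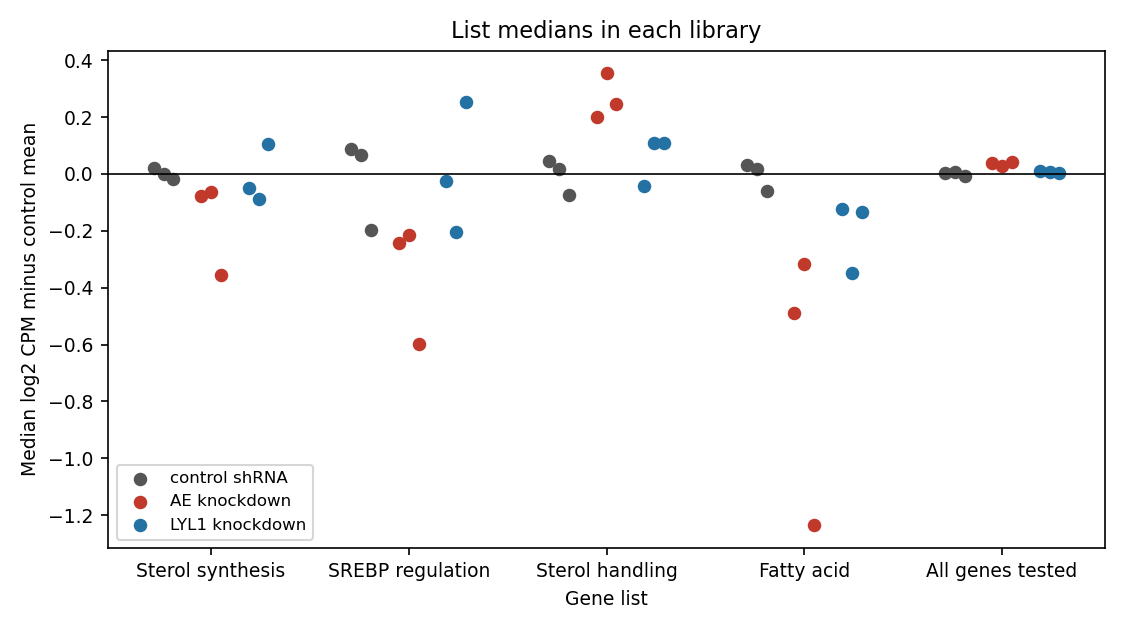
Median over the genes of a list of log2 CPM minus the control mean, for each library (points, by group), with all 14741 tested genes at the right for scale. The fatty acid list is at -0.49, -0.32 and -1.24 in AE knockdown 1 to 3, while the sterol synthesis list is at -0.08, -0.06 and -0.35.

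The direct contrast of AE knockdown against LYL1 knockdown tested whether the responses differ. Of the 37 genes 4 were lower with AE knockdown (EBP, SREBF1, SOAT1 and ACLY), against 9.7% of all genes tested, and 3 were higher (HSD17B7, NPC2 and MYLIP), against 10.7%. The groups did not overlap for 9 genes in the lower and 3 in the higher direction, against 17.2% and 18.2% of all genes. The comparison shares its AE knockdown libraries with that against control, and the values of each are given side by side here.

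Among the 7 called genes NPC2 had the largest difference, 3.30-fold higher with AE knockdown (1.72, SE 0.31, edgeR adjusted p = 0.00633). HSD17B7 was 1.60-fold higher (0.68, edgeR adjusted p = 0.0382) and MYLIP 1.42-fold higher (0.51, edgeR adjusted p = 0.0328). EBP was 1.63-fold lower (-0.70, SE 0.18, edgeR adjusted p = 0.0214) and ACLY 1.65-fold lower (-0.73, SE 0.20, edgeR adjusted p = 0.0268). ACLY was thus the 1 fatty acid gene for which a difference between the knockdowns was called. The list median was -0.39 and all 8 genes lay below 0, as did 7075 of the 14741 genes tested. FADS2 had a log2 difference of -0.82 (95% interval -1.47 to -0.17, edgeR adjusted p = 0.0729), SCD of -0.48 (adjusted p = 0.138) and ACACA of -0.37 (adjusted p = 0.169) in the same edgeR fit.

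SREBF1 and SOAT1 were called in this contrast and not against control. SREBF1 lay at 84.3, 100 and 51.1 CPM with AE knockdown and at 117, 120 and 148 CPM with LYL1 knockdown, without overlap (-0.71, SE 0.22, edgeR adjusted p = 0.0439). SOAT1 lay at 61.6, 77.2 and 69.4 CPM against 106, 85.4 and 107 CPM (-0.52, SE 0.14, edgeR adjusted p = 0.0251). For both genes the LYL1 knockdown mean was above the control mean, by 0.14 and 0.16 on the log2 scale. Without LYL1 shRNA 538 or 542 no gene was called lower and NPC2 alone higher. Over all genes, these omissions gave 943 and 805 called lower and 887 and 662 higher, against 1430 and 1573 with all libraries. Leaving out any 1 control replicate also left NPC2 as the only gene higher, with 1101, 1074 and 1163 higher over all genes. The count lower was 1 without AE knockdown 1 and 7 without AE knockdown 2, against 1368 and 1856 over all genes. SREBF1 was lost without any single library other than AE knockdown 2, HSD17B7 without AE knockdown 2 and MYLIP without AE knockdown 3.

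Beyond the 38 genes, 67 further genes of the same pathways were listed, and 62 of them were tested. With AE knockdown 7 of the 62 fell, against 10.4% of all genes tested, and 4 rose, against 11.4%, with a median of -0.09. With LYL1 knockdown 0 were called in edgeR (4 had an unadjusted p below 0.05). The rises included NR1H2, the receptor LXR beta, at 23.4, 23.1 and 20.2 CPM in the controls and 45.5, 40.7 and 46.1 CPM with AE knockdown (1.98-fold, edgeR adjusted p = 0.00659). NR1H2 lay at 39.2, 29.8 and 49.9 CPM with LYL1 knockdown, also above all controls, but was not called there (0.83, edgeR adjusted p = 0.469). ERLIN1, an endoplasmic reticulum protein that binds the SREBP and SCAP complex, rose 2.02-fold (edgeR adjusted p = 0.0125). ELOVL1, which lengthens very long saturated fatty acids, rose 1.68-fold (edgeR adjusted p = 0.00711), in the opposite direction to the 8 fatty acid genes above. STARD3, which carries cholesterol out of late endosomes, rose 1.46-fold (edgeR adjusted p = 0.0178).

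Among the falls, LBR, the second sterol C14 reductase beside TM7SF2, lay at 574, 577 and 568 CPM in the controls, against 249, 429 and 300 CPM with AE knockdown (1.76-fold lower, edgeR adjusted p = 0.0167). TMEM97, a sterol-responsive membrane protein that interacts with NPC1, fell 1.60-fold (edgeR adjusted p = 0.0166). The factors of the promoter motifs were singled out after their values were seen. NFYA, the NF-Y subunit that contacts the CCAAT box, lay at 200, 212 and 227 CPM against 161, 164 and 109 CPM (1.47-fold lower, edgeR adjusted p = 0.0355), and SP1 fell 1.28-fold (edgeR adjusted p = 0.0442). The other NF-Y subunits overlapped the controls and were not called, NFYB at -0.15 (edgeR adjusted p = 0.479) and NFYC at -0.28 (edgeR adjusted p = 0.409) on the log2 scale. Nor were the E-box factors USF1 at 0.12 (edgeR adjusted p = 0.6) and USF2 at 0.43 (edgeR adjusted p = 0.099). Of the 24 further fatty acid genes 0 fell and 1 rose, with a median of -0.03, against 4 of 8 and -0.56 in the list above. In the contrast of the knockdowns 7 of the 62 were lower with AE knockdown, against 9.7% of all genes tested, and 4 higher, against 10.7%. The 6 with the smallest adjusted p were ELOVL1 (0.78, edgeR adjusted p = 0.00622), ERLIN1 (0.90, edgeR adjusted p = 0.0192), PAQR3 (-0.94, edgeR adjusted p = 0.0143), LBR (-0.84, edgeR adjusted p = 0.015), TMEM97 (-0.68, edgeR adjusted p = 0.0171) and HACD3 (-0.56, edgeR adjusted p = 0.025). PAQR3 anchors the SREBP and SCAP complex at the Golgi, and HACD3 dehydrates intermediates of fatty acid elongation.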

How the data were processed

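RNA was sequenced from 9 Kasumi-1 libraries, 3 per group. Each deposited file lists unnormalised whole-number counts by gene symbol. The submitters' processing notes name featureCounts 2.0.1, HISAT2 2.2.0, fastp 0.20.1, SAMtools 1.7, DESeq2 1.26.0 and the genome build hg19. The annotation, the strand setting and the treatment of multiply mapped reads are not given in the sources used here, so counts of overlapping genes and of genes with near-identical copies are uncertain. In 6 files 5 gene names carried a decimal suffix, which was removed.

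Genes were filtered with filterByExpr by group, leaving 14741. Counts were scaled by TMM and fitted with edgeR 4.0.16 (R 4.3.3, limma 3.58.1) by its quasi-likelihood test, robust, with all 9 libraries in 1 group-means model, with Benjamini-Hochberg adjustment across all genes tested. The standard error is the log2 fold change divided by the square root of F, and fold changes use a prior count of 0.125. The fit was tested on simulated data with known changes. Each simulated gene had the same spread in all groups, so the simulation cannot show how the fit behaves at the unequal spreads measured here. The 38 genes and the further pathway lists were chosen with earlier results of these data known. All 38 genes are named, as are up to 6 called further genes per comparison with the smallest adjusted p. The promoter factors NFYA, NFYB, NFYC, SP1, USF1 and USF2 were named outside this rule, after their values were seen. Promoter windows are from RefSeq, and exon overlaps from GENCODE v29, on GRCh38 and not the authors' build. Alternatives were other scalings, low-count filters, DESeq2 1.42.0, limma-voom, the legacy test, only the 6 libraries compared, a threshold of 0.01, the replicate number as a block, and omission of each library.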

Additional observations from a re-analysis of the deposited data

How the results depend on the processing

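No fold change of a called gene changed sign under any setting run. With AE knockdown against control, leaving out single libraries gave 0 to 12 genes called lower and 1 to 3 called higher, against 5 and 3. Fitting only the 6 libraries compared gave 3 lower (1267 of 14320 over all genes), and an adjusted p below 0.01 gave 0 lower and 1 higher. The other scalings, filters and tests gave 4 to 6 lower and 3 or 4 higher. With AE against LYL1 knockdown, leaving out single libraries gave 0 to 7 lower and 1 to 3 higher, against 4 and 3. Fitting 6 libraries, or an adjusted p below 0.01, gave 0 lower and 1 higher each. Over all genes, the omissions gave 805 to 1856 lower and 662 to 2151 higher in this contrast. The fit of 6 libraries gave 471 and 470 over all genes, against 1430 and 1573. LYL1 knockdown against control gave 0 calls among these genes in every setting. Over all genes, leaving out control replicate 1, 2 or 3 gave 602, 533 and 605 called lower and 494, 424 and 445 called higher with AE knockdown, against 1530 and 1684. The median of the fatty acid genes with AE knockdown ran from -0.80 to -0.39 and that of the sterol synthesis genes from -0.18 to -0.00 over all settings. With replicate number as a block, 2 genes were called lower and 1 higher, and over all genes 885 and 744. Deviations of same-numbered control and AE knockdown libraries correlated at 0.0349, -0.00862 and 0.000231, and not every sample correlated best with its own number. LYL1 shRNA numbers occur in no other group. The cause of these changes was not tested. At a median standard error of 0.22 on the log2 scale, small changes are not detectable.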
